A study of Mus musculus with 6 samples.

Results

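Mitochondrial ribosomal protein genes were taken as all protein-coding genes of the deposited count table whose GENCODE M21 symbol begins with Mrpl or Mrps, and 78 of the 54532 genes listed met that rule. Of these, 51 encode proteins of the large subunit, 26 encode proteins of the small subunit, and Mrps36 is named as a ribosomal protein although its product is now placed in the 2-oxoglutarate dehydrogenase complex. Mrps30 and Mrps18a were counted with the large subunit, where their products sit. A filter on low counts, a median above 1 on the log2 CPM scale in at least 1 group (CPM are counts scaled to library size), kept 77 of the 78 and 13323 genes in all.

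The study asked which effects of YAP in cardiomyocytes (CMs) depend on its partner TEAD. Wildtype ICR mice received 1e+11 viral genomes of AAV9 under the skin at 6 d of age, with GFP, YAP6SA or YAP5SA driven by the cardiac troponin T promoter, and hearts were taken at 9 d of age. YAP5SA carries alanine at the LATS1/2 phosphorylation sites and binds TEAD, while YAP6SA carries a further serine-to-alanine change that disrupts TEAD binding. CM nuclei were pulled down with an antibody to PCM1, and poly-A RNA of the nuclei was sequenced without strand information in 2 libraries per group, 1 in each of 2 batches. All groups were thus virus-treated neonates without a gene deletion, and the transgene was limited to cells that use the troponin T promoter. The p-values rest on the spread among the 6 libraries that remains after group and batch are fitted, with the estimate shared across genes. The number of CMs that took up each virus was not analysed here.

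Mitochondria keep a ribosome of their own, built from rRNAs of the mitochondrial genome and proteins made in the cytosol from nuclear genes and then imported. It translates the few mRNAs of the mitochondrial genome, all of which encode subunits of the respiratory chain and ATP synthase, so a heart muscle cell that relies on oxidative phosphorylation needs both genomes. Many of its proteins descend from bacterial ribosomal proteins, and others were added in the mitochondrial lineage.

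The 6 libraries held between 14552847 and 19615627 gene counts, and the members took 0.290% to 0.355% of them. Of the kept members, 75 had at least 100 counts in every library. Endogenous Yap1 did not mark the transgene, with 139 and 130 CPM in GFP, 122 and 130 in YAP6SA and 138 and 102 in YAP5SA, so it gave no check of the labels. The 8 CM markers summed to at least 30350 CPM in every library and the 8 fibroblast markers to at most 1777 CPM. No marker of another cell type was at 0 in all libraries. All 8 fibroblast markers were lower in batch 2 than in batch 1, with a median log2 difference of -0.71, and none was called between groups. Endothelial markers summed to 466 to 691 CPM in all libraries and macrophage markers to at most 131 CPM. Mural cell markers had 498 to 588 CPM in GFP and YAP6SA and 336 to 429 CPM in YAP5SA. In YAP5SA against GFP, 1 macrophage marker was called higher and 1 mural cell marker lower, where 12.8% and 9.18% of all genes were. All 7 kept macrophage markers had positive values there, with a median of 0.32. All 10 proliferation markers rose in YAP5SA OE CMs, from a sum of 139 to 171 CPM in GFP to 449 to 653 CPM. All 8 CM markers had negative log2 fold changes there, with a median of -0.76 and 2 passing the test. Their sum was 49540 to 66510 CPM in GFP and 30350 to 41610 CPM in YAP5SA. The part of these shifts in the members' values was not tested. In RNA pooled from many nuclei, fewer nuclei of a kind and less RNA per nucleus cannot be told apart.

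Levels of the members were compared per kilobase of the principal transcript. In GFP CMs the kept members had a median of 20.9 CPM per kb, and the highest stood 62.2-fold above the lowest. Mrpl4, a core protein near the exit tunnel, had 111 and 96.3 CPM per kb in the GFP libraries. Mrpl42 had 115 and 82.7 CPM per kb, and Mrpl41 had 90.2 and 110 CPM per kb. The order of these 3 differed between the GFP libraries, and the differences between their levels were not tested. At the other end, Mrpl17 had 1.82 and 1.51 CPM per kb, Mrps25 had a mean of 3.05 CPM per kb and Mrpl11, of the stalk base, one of 3.91. Transcript length differed widely as well: the principal transcript of Mrpl17 has 7300 bases and that of Mrpl42 has 666 bases. The length of all exons was then used instead, an alternative chosen after seeing the data. Mrpl41 and Mrpl17 stayed at the ends, but the members beside them changed. Mrps23 and Mrpl55 joined Mrpl41 at the top in place of Mrpl4 and Mrpl42. At the low end Mrpl16 and Mrpl13 joined Mrpl17 in place of Mrps25 and Mrpl11.

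Mrpl53 was the only member with 0 counts in all libraries. Its exons overlap those of the same-strand gene Gm42688 and the opposite-strand gene Ccdc142os. The overlap is 710 bases summed over both genes, so a base shared with both is counted more than once. Reads in shared bases were assigned to no gene, so the 0 counts do not give its level. Exon overlap also touched Mrps25, with 4590 bases shared with Nr2c2 on the opposite strand, and the value of that gene is uncertain in these libraries without strand. The 5 processed pseudogenes of the family had at most 10 counts in any library.

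YAP6SA OE CMs were first compared with GFP CMs to ask whether YAP without TEAD binding changed the genes of the mitochondrial ribosome. None of the 77 kept members passed the test (edgeR quasi-likelihood test with batch as a term, adjusted p below 0.05 over all 13323 genes), where 0.0450% of all genes were called. At an unadjusted p below 0.05, 1 member was higher and 1 was lower, beside 514 and 276 of all 13323 genes. DESeq2, limma-voom and the likelihood ratio test also called 0 members. The median log2 fold change was 0.07 over the members and 0.00 over all genes. Positive values were found in 51 members (66.2%), beside 50.3% of all genes.

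The members at either end of the range were then described. Mrpl32, a large-subunit protein whose maturation by a mitochondrial protease precedes ribosome assembly, had 28.5 and 23.6 CPM in GFP and 37.4 and 34.9 in YAP6SA OE CMs. Its log2 fold change was 0.47 with an SE of 0.18 and an adjusted p of 0.76. Mrps25, a small-subunit protein, had 18.2 and 18.9 CPM in GFP and 13.5 and 12.7 in YAP6SA OE CMs, a log2 fold change of -0.50 with an SE of 0.22 and an adjusted p of 0.84. Mrpl16 and Mrps28 had log2 fold changes of 0.63 and 0.53 on at most 182 counts in each library, with SEs of 0.32 and 0.36. Neither passed the test. At the lower end, Mrps30 and Mrps23 had -0.33 and -0.27 and were not called either.

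Mrps33, a small-subunit protein, showed no difference detectable with 2 libraries per group between YAP6SA and GFP. It had 31.3 and 37.4 CPM in GFP and 30.4 and 35.4 CPM in YAP6SA OE CMs, and the groups overlapped. Its log2 fold change was -0.06 with an SE of 0.19 (adjusted p of 0.97).

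YAP5SA OE CMs were then compared with GFP CMs. Here 4 members rose and 8 fell, while 12.8% of all genes were called higher and 9.18% lower, 22.0% in all. The members called higher were 5.2% of the 77, a smaller share than the background, and those called lower were 10.4%, close to the background. At an unadjusted edgeR p below 0.05, 9 members were higher and 18 lower, beside 2591 and 2261 of all 13323 genes. The median log2 fold change over the members was -0.14 against -0.0031 over all genes, and 53 of 77 values were negative. In 38 members the difference was negative in both batches, which is 49.4% of them beside 37.0% of all genes. The plot of members by class shows the 4 higher members in the large subunit and the 8 lower ones spread over both subunits.

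**Figure D1:**
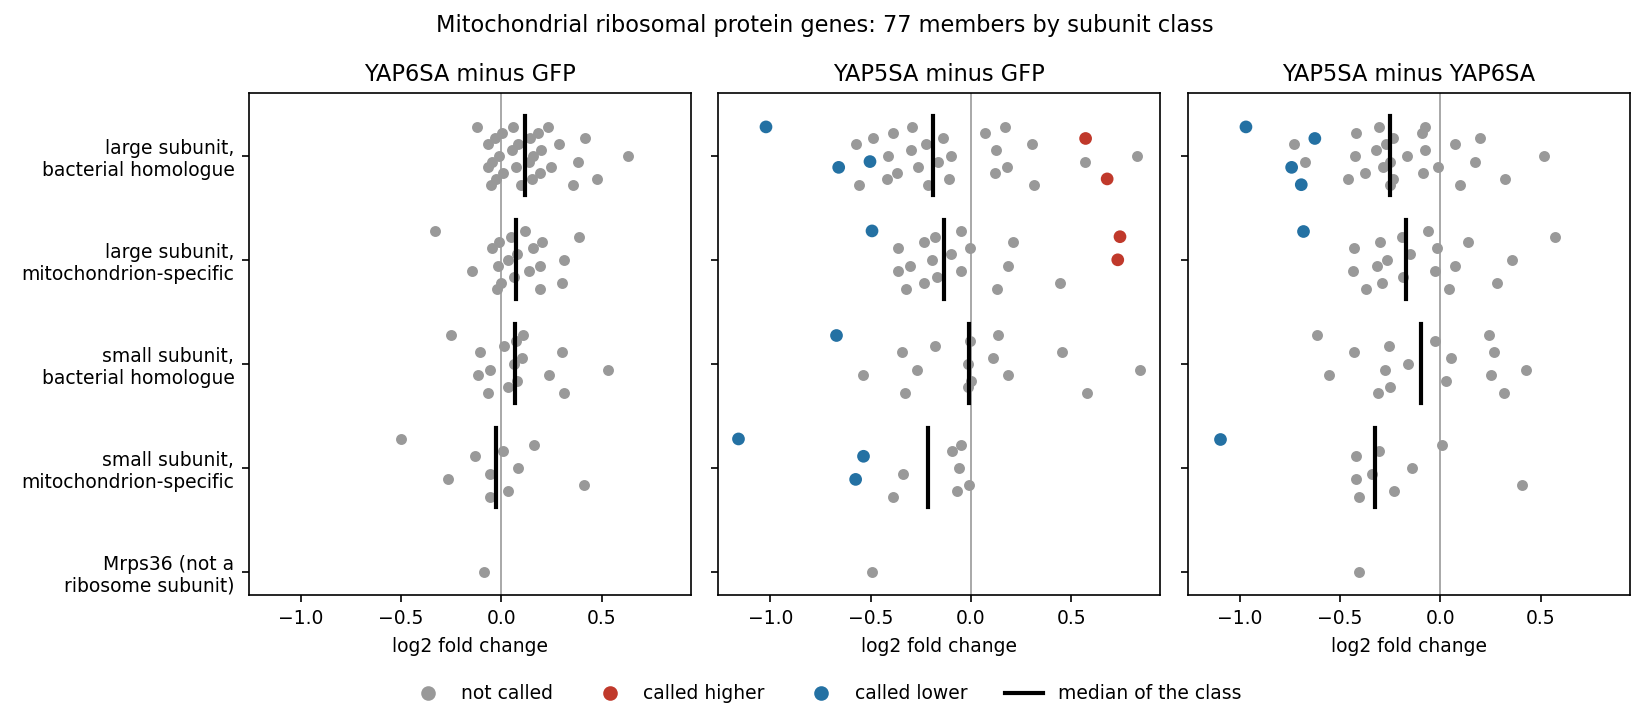
Log2 fold change (x axis) of the 77 kept members in 3 comparisons, in rows by subunit class, with vertical scatter only to separate points. Red and blue points passed the edgeR test (adjusted p below 0.05), grey points did not, and black bars are class medians. No point is coloured in YAP6SA against GFP, and 4 red and 8 blue points appear in YAP5SA against GFP.

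Among the kept members, Mrps33 had the lowest fold change. It encodes a protein added in the mitochondrial lineage (chr6:39801804-39810988, minus strand, GRCm38). It had 31.3 and 37.4 CPM in GFP, 30.4 and 35.4 in YAP6SA and 15.4 and 15.2 in YAP5SA OE CMs. Both YAP5SA libraries were below all 4 of the others, and the level was 0.448 of that in GFP (log2 fold change of -1.16, SE of 0.19, adjusted p of 0.0034).

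Mrpl55 followed. It encodes a large-subunit protein (chr11:59202486-59206134, plus strand). It had 64.0 and 55.5 CPM in GFP, 59.9 and 55.2 in YAP6SA and 33.0 and 26.1 in YAP5SA OE CMs. Again both YAP5SA libraries were the lowest of the 6, with a level 0.493 of that in GFP (log2 fold change of -1.02, SE of 0.16, adjusted p of 0.0024). Mrps33 and Mrpl55 share no exon base with another annotated gene, and both stayed called in all 9 alternative fits and in all 6 fits that left out a library.

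The other 6 members that fell did so by less. Mrpl3, a core protein of the large subunit, had 183 and 177 CPM in GFP and 140 and 92.8 in YAP5SA OE CMs, a log2 fold change of -0.66 (SE of 0.17). Its exons overlap Gm38077 on the same strand and Gm47106 on the opposite strand, with 272 bases summed over both. Mrpl4 had 143 and 124 CPM in GFP and 109 and 80.9 in YAP5SA OE CMs, a log2 fold change of -0.50 (SE of 0.16). Mrps5, a core protein of the small subunit, had 113 and 123 CPM in GFP and 85.8 and 62.5 in YAP5SA OE CMs, a log2 fold change of -0.67. All 3 encode proteins that the bacterial ribosome also has. Mrps23, a small-subunit protein of the mitochondrial lineage, had 126 and 136 CPM in GFP and 94.7 and 81.3 in YAP5SA OE CMs, a log2 fold change of -0.57. Mrps35, of the same class, had 63.9 and 60.1 CPM in GFP and 45.2 and 40.5 in YAP5SA OE CMs, a log2 fold change of -0.54. Mrpl42, of the large subunit, had 76.4 and 55.0 CPM in GFP and 51.7 and 41.1 in YAP5SA OE CMs, a log2 fold change of -0.49. In each of the 6 genes both YAP5SA libraries were below both GFP libraries. The adjusted p lay between 0.021 for Mrpl3 and 0.048 for Mrpl4.

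Mrpl39 rose from 63.3 and 54.7 CPM in GFP to 82.4 and 117 in YAP5SA OE CMs, with 60.9 and 72.1 in YAP6SA. It encodes a large-subunit protein related to threonyl-tRNA synthetases, and its log2 fold change was 0.73 (SE of 0.18, adjusted p of 0.020). Mrpl54 had 17.3 and 16.8 CPM in GFP and 26.4 and 30.4 in YAP5SA OE CMs, a log2 fold change of 0.74 (SE of 0.22, adjusted p of 0.036). Both belong to the large subunit, as do the other two that rose, which are small proteins with bacterial homologues. Mrpl33 had 33.7 and 29.8 CPM in GFP and 46.4 and 54.8 in YAP5SA OE CMs, a log2 fold change of 0.68 (adjusted p of 0.028). Mrpl32, at 28.5 and 23.6 CPM in GFP, had 37.4 and 39.7 in YAP5SA OE CMs, a log2 fold change of 0.57 (adjusted p of 0.048). In all 4 genes both YAP5SA libraries were above both GFP libraries. In Mrpl33, Mrpl32 and Mrpl54 both YAP6SA libraries were also above both GFP libraries. None of these genes was called in YAP6SA against GFP (edgeR, adjusted p of 0.84, 0.76 and 0.87). Both comparisons share the GFP libraries, and the share of all genes separated in this way was not counted. Mrpl33 shares 261 exon bases with a gene on the same strand.

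**Figure D2:**
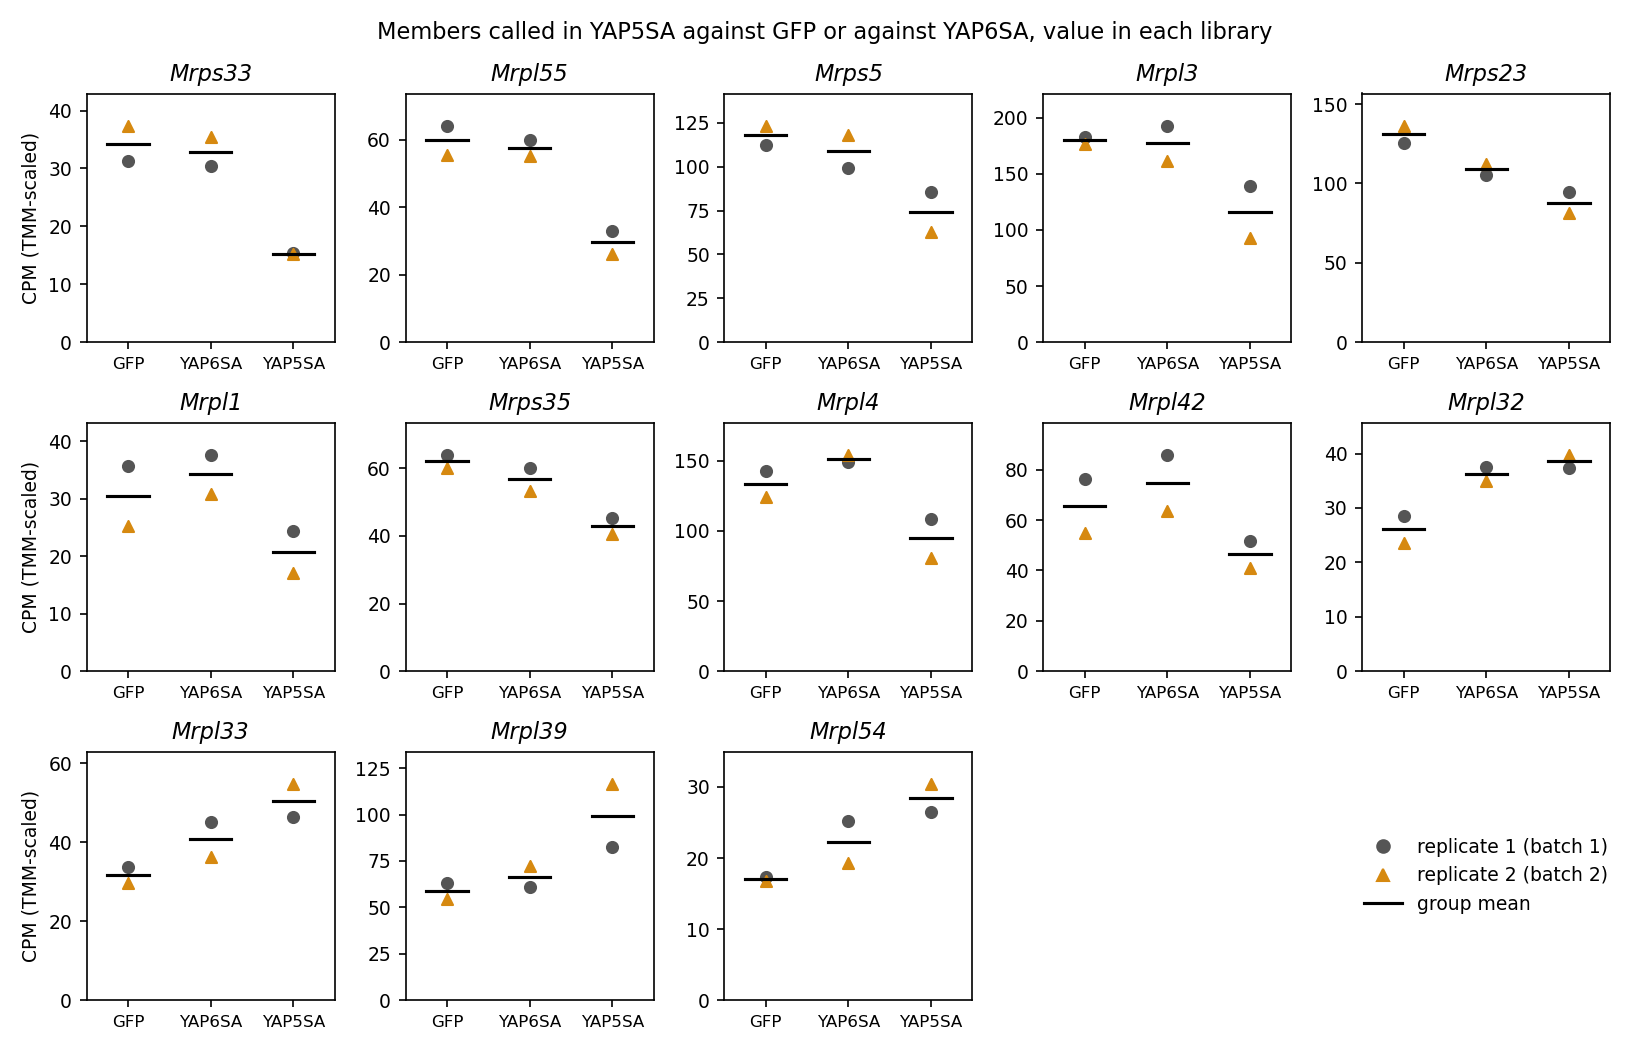
TMM-scaled CPM (y axis, from 0) of the 13 members called in YAP5SA against GFP or against YAP6SA, in each library of the 3 groups (x axis), with circles for batch 1, triangles for batch 2 and bars for group means. Mrps33 at 15.2 to 15.4 CPM and Mrpl55 at 26.1 to 33.0 CPM in YAP5SA lie far below the other groups.

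For the alternative fits that follow, the share of all genes called is not given here. The number of member calls depended on single libraries. It was 4 without GFP replicate 1, 2 without GFP replicate 2, 7 without YAP6SA replicate 1, 8 without YAP6SA replicate 2, 22 without YAP5SA replicate 1 and 3 without YAP5SA replicate 2, and 6 without the batch term. Mrps33 and Mrpl55 were the members called in every one of these fits. Calls near the threshold also depended on the tool and the libraries fitted. DESeq2 called 9 members and did not call Mrpl32, Mrpl4 and Mrpl42, and a fit of the 4 GFP and YAP5SA libraries called 8 and lost Mrps35 as well. Of 9 alternative fits, 5 called Mrpl32 and Mrpl42, 6 called Mrpl4, 7 called Mrps35 and 8 called Mrpl54 and Mrpl3, while Mrpl39, Mrpl33, Mrps23 and Mrps5 were called in all 9.

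The members with the most positive values were not among those called. Mrps28 had 6.20 and 3.27 CPM in GFP and 7.82 and 8.41 in YAP5SA OE CMs, a log2 fold change of 0.84 with an SE of 0.36 and an adjusted p of 0.12. Mrpl16 had a log2 fold change of 0.83 with an SE of 0.32 and an adjusted p of 0.090. Both values rested on 50 to 156 counts in the GFP and YAP5SA libraries.

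By class, the 10 small-subunit members of the mitochondrial lineage all had negative log2 fold changes, from -1.16 to -0.0092, with a median of -0.22. Of these 10, 7 were negative in both batches, beside 37.0% of all genes. Calls lower numbered 3 (30%), beside 9.18% of all genes. The 16 small-subunit members with a bacterial homologue had a median of -0.01 and 1 call. The 30 large-subunit members with a bacterial homologue had a median of -0.19, with 2 called higher and 3 lower, and the 20 kept large-subunit members of the mitochondrial lineage had a median of -0.13, with 2 higher and 1 lower. Mrpl55 was listed with the bacterial homologues although its product is usually counted as particular to mitochondria; moving it, a choice made after seeing the data, gave medians of -0.17 and -0.17. Mrps18a and Mrps18b were also counted with the mitochondrial lineage, though both derive from a bacterial protein, and they were not moved. The difference between classes was not tested.

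Paralogs and members with an unusual role did not pass the test. Mrps18a, Mrps18b and Mrps18c, which derive from the same bacterial protein, had log2 fold changes of -0.19, -0.07 and 0.0021 in YAP5SA against GFP. Mrpl12, which also binds the mitochondrial RNA polymerase, had 0.30 with an SE of 0.27, and Mrpl58, derived from a peptidyl-tRNA hydrolase, had -0.32 with an SE of 0.16. Mrps36 had -0.49 with an SE of 0.25 and an adjusted p of 0.18. Mrps30 showed opposite directions in the batches, with -0.55 in batch 1 and 0.47 in batch 2, and Mrpl57 did so too, with -0.41 and 0.27.

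Members with higher levels tended to have lower fold changes. Across the 77 members, Spearman's rho between the mean CPM over the 6 libraries and the log2 fold change of YAP5SA against GFP was -0.45, beside -0.16 across all 13323 genes. Both quantities come from the same libraries and the genes are not independent, so this is a description only. In the plot of level and difference, Mrps33 and Mrpl55 have the lowest levels of the 8 members that fell. The members also have short transcripts, with a median principal transcript of 1316 bases beside 3087 bases for the kept protein-coding genes. The median log2 fold change was -0.01, -0.18 and -0.22 in the 26 shortest, 25 middle and 26 longest members by this length.

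**Figure D3:**
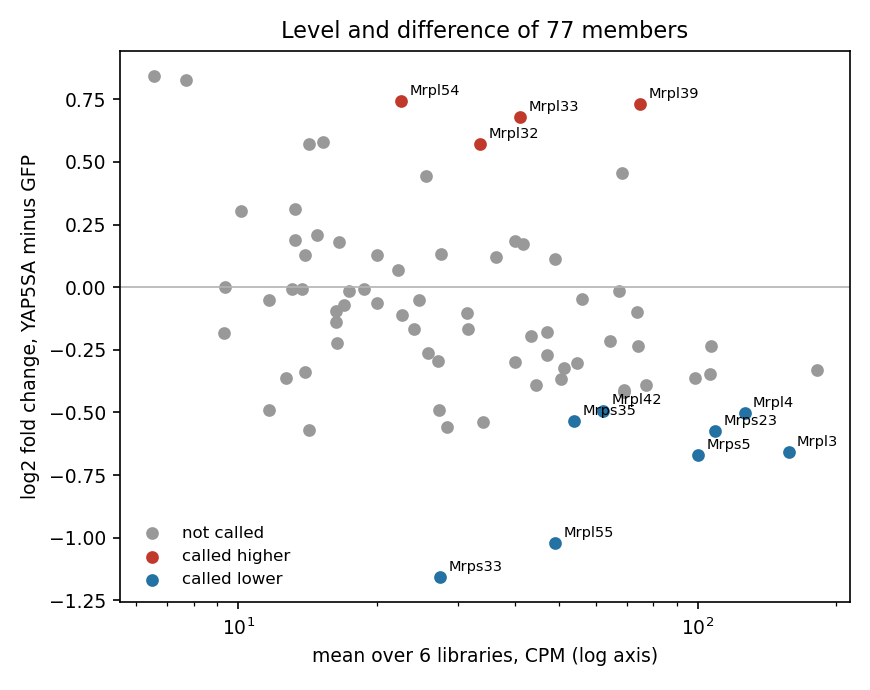
Mean CPM over the 6 libraries (x axis, log scale) and log2 fold change of YAP5SA against GFP (y axis) for the 77 kept members, with called members named in red (higher) and blue (lower). The points drift downward to the right, with a Spearman's rho of -0.45.

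The YAP forms were then compared directly, in a comparison that shares the YAP5SA libraries with the one above. The forms differ in TEAD binding, and the paper also reports less YAP6SA in the nucleus and more in the cytoplasm. These differences between the forms cannot be told apart in this comparison. Here 0 members were called higher, where 9.0% of all genes were called higher, and 6 were called lower (7.79% of the members), where 5.68% of all genes were called lower; 14.7% of all genes were called in either direction. At an unadjusted edgeR p below 0.05, 2 members were higher and 18 lower, beside 2180 and 1929 of all 13323 genes. The edgeR likelihood ratio test called 10 members, 1 of them higher. The median log2 fold change was -0.24 over the members and -0.01 over all genes. In both batches 46 members (59.7%) were lower in YAP5SA, beside 36.7% of all genes. Mrps33 had a log2 fold change of -1.10 (SE of 0.19, adjusted p of 0.0056) and Mrpl55 one of -0.97 (SE of 0.16, adjusted p of 0.0041). Mrpl42, Mrpl4 and Mrpl3, which also fell against GFP, had -0.68, -0.69 and -0.63. Mrpl1, a large-subunit protein with a bacterial homologue, had 37.6 and 30.9 CPM in YAP6SA and 24.4 and 17.0 in YAP5SA OE CMs, a log2 fold change of -0.74 (adjusted p of 0.027). The YAP5SA and YAP6SA libraries did not overlap in any of these 6 genes. At the upper end Mrpl39 had 0.57 with an adjusted p of 0.062, and Mrpl17 and Mrps24 had 0.52 and 0.42 and were not called. The count was 0 without YAP6SA replicate 2, 3 without YAP6SA replicate 1, 19 without YAP5SA replicate 1 and 2 without the batch term. The share of all genes called in those fits is not given here. A joint test of both group terms called 7 members, where 17.6% of all genes were called. The batch term called 0 members, where 0.203% of all genes were called, 0.0600% higher and 0.143% lower in batch 2. At an unadjusted p below 0.05 for batch, 7 members passed, 1 higher and 6 lower. Of all 13323 genes, 813 were higher and 804 lower at that level.

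Promoters of the members most affected were then read. Sequences of 250 bases before to 50 bases after the RefSeq start were given for 69 of the 78 members, with 75 entries because some have several starts (RefSeq, GRCm38.p6). They were searched on both strands for GCATGCG (NRF1), CCGGAAG (ETS factors such as GABP), ATGGCGG (YY1), CACGTG (the E box bound by MYC) and GGAATG (TEAD); the NRF1 letters overlap their own reverse complement. The ETS letters stood in 34.7% of member entries and in 8.86% of all 32851 entries, or 17.1% of entries of kept protein-coding genes. The YY1 letters stood in 17.3%, 4.05% and 7.87%, but in the 250 bases before the start alone they stood in 1.33%, 2.21% and 3.76%, so the higher share in the members rested on the 50 bases after the start. The ETS letters stood in 24%, 6.91% and 13.2% of these shorter windows. In the whole window the NRF1 letters stood in 10.7%, 3.58% and 6.25%, the E box in 9.33%, 7.15% and 9.87%, and the TEAD letters in 10.7%, 14.7% and 12.2%. NRF1 and GABP are known regulators of nuclear genes for mitochondrial proteins.

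The promoters below are those of 3 members that rose in YAP5SA OE CMs and of the 2 that fell most, shown because they differ in the NRF1 letters. Each runs 5′ to 3′ on the gene's strand, with the start after the first 250 bases, and capitals mark any of the 5 motifs on either strand.
Mrpl39, chr16:84735195-84735494, minus strand: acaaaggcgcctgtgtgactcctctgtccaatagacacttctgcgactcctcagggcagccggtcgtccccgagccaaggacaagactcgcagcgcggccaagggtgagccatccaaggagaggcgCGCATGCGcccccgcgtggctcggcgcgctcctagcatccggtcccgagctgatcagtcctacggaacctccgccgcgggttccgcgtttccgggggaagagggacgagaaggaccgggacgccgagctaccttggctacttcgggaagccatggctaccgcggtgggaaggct
Mrpl33, chr5:31613701-31614000, plus strand: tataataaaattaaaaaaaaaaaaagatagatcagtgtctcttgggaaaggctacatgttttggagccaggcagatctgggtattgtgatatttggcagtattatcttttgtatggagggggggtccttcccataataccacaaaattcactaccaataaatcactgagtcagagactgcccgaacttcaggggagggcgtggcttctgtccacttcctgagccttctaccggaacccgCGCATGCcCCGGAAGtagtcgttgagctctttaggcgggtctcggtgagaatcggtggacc
Mrpl32, chr13:14612988-14613287, minus strand: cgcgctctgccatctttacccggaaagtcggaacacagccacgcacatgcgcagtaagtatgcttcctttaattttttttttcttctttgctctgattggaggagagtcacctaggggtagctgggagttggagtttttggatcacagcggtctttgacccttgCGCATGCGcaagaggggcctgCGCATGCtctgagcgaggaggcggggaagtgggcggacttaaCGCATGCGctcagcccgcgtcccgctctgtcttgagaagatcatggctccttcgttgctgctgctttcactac
Mrps33, chr6:39810887-39811186, minus strand: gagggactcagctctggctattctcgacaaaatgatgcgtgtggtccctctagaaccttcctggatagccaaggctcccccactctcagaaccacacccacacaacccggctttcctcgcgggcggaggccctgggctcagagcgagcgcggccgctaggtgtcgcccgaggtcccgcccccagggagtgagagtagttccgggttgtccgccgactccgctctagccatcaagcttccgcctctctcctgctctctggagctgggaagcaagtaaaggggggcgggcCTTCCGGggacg
Mrpl55, chr11:59202236-59202535, plus strand: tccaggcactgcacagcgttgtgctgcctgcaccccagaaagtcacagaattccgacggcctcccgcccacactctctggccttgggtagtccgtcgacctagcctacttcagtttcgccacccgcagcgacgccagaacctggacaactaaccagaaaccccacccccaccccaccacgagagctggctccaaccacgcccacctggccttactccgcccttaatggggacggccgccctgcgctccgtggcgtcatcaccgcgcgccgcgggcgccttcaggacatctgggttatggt

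The NRF1 letters stood in the promoters of Mrpl39, Mrpl33 and Mrpl32, which are all 3 of the members called higher that have an entry, and Mrpl32 held them at 3 places. They stood in 0 of the 6 members called lower with an entry and in 5 of the 59 kept members with an entry that were not called. The Mrps33 window held the ETS letters after the start, and the Mrpl55 window held none of the 5 motifs. This split was noticed after the values were seen. The 5 members with the NRF1 letters that were not called had values in both directions in YAP5SA against GFP, with log2 fold changes of 0.57 for Mrpl17, 0.17 for Mrpl9, -0.07 for Mrps18b, -0.14 for Mrpl22 and -0.30 for Mrpl10. The 60 kept members with an entry but without these letters had a median of -0.18. The RNA of Nrf1 itself had a log2 fold change of -0.08 (adjusted p of 0.82).

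Many members lie back to back with another gene. Of the 77 kept members, 33 (42.9%) had an opposite-strand protein-coding gene starting within 1 kb of their own start, beside 16.1% of the 12237 kept protein-coding genes. Mrpl46 and Mrps11 are such a pair, both members, with starts 412 bases apart and log2 fold changes of -0.18 and -0.01 in YAP5SA against GFP. In 29 pairs both genes were kept, and 17 had the same sign and 12 the opposite sign in that comparison. Signs of other gene pairs were not counted. In these pairs 8 neighbours were called, 3 higher and 5 lower, where 12.8% of all genes were called higher and 9.18% lower.

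Some neighbours with a shared start region moved in opposite directions and some in the same one. Mrpl54 and Apba3, an adaptor protein gene, start 26 bases apart on chromosome 10, and both were called, in opposite directions. Apba3 had 126 and 129 CPM in GFP and 93.3 and 70.1 in YAP5SA OE CMs, a log2 fold change of -0.66 (SE of 0.16, adjusted p of 0.016), beside 0.74 for Mrpl54. Mrpl57 starts 49 bases from Ska3, a kinetochore gene of dividing cells, which rose from 6.94 and 4.70 CPM in GFP to 22.7 and 26.5 in YAP5SA OE CMs (log2 fold change of 2.11, adjusted p of 0.00145), while Mrpl57 had -0.05. Mrpl49 starts 59 bases from Fau, a gene for a protein of the cytosolic ribosome, which had 0.82 (adjusted p of 0.014) while Mrpl49 had -0.01. Mrps5 and Zfp661 start 128 bases apart and both fell, with -0.67 and -1.12. These neighbours were chosen after their values were seen.

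**Figure D4:**
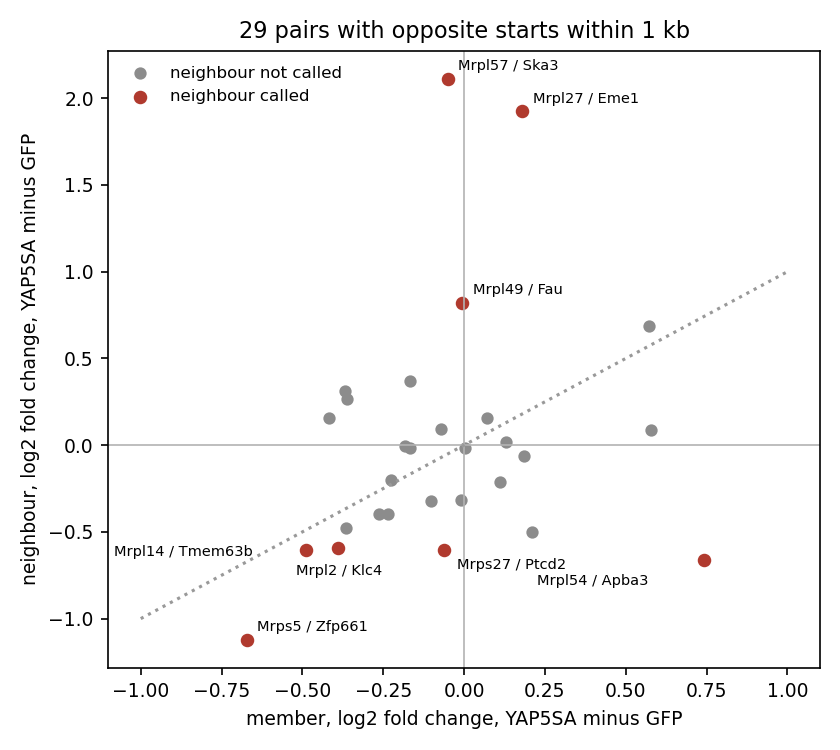
Log2 fold change of YAP5SA against GFP for a member (x axis) and the gene that starts within 1 kb on the opposite strand (y axis), for 29 pairs, with called neighbours named in red and a dotted line of equal change. Mrpl54 and Apba3 lie in the lower right, at 0.74 and -0.66, and Ska3 lies at 2.11 above Mrpl57.

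The rest of the mitochondrial translation system was counted in the same fits, in lists drawn up with earlier results of these data known. In YAP6SA OE CMs no gene of these lists was called. In YAP5SA OE CMs, translation factors had 0 genes called higher and 5 of 14 lower, beside 12.8% and 9.18% of all genes. All 14 values were negative, 10 of them in both batches, and the median was -0.51. Mtif2, the initiation factor, fell from 166 and 151 CPM in GFP to 116 and 71.8, a log2 fold change of -0.78 (SE of 0.19, adjusted p of 0.016). Gfm1, an elongation factor, Gfm2, a recycling factor, and Guf1 had -0.65, -0.58 and -0.54, and Lrpprc, which stabilises mitochondrial mRNAs, had -0.66.

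Over all genes, 9.18% were called lower and 12.8% higher in YAP5SA against GFP. Assembly and rRNA modification factors had 5 of 27 called lower and 0 higher, with a median of -0.34. Among them Mrm1 and Mrm3, methyltransferases of the large-subunit rRNA, had -0.84 and -0.70, and Rbfa, an assembly factor of the small subunit, had -0.73. Mitochondrial aminoacyl-tRNA synthetases had 3 of 17 lower and a median of -0.20. Genes for transcription and replication of mitochondrial DNA had 1 of 8 lower and a median of -0.35. Of 5 mitochondrial ribosome proteins with other names, Ptcd3 fell, with -0.63. In each of these lists 0 genes were called higher.

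Among 9 regulators of mitochondrial biogenesis, 2 rose and 2 fell in YAP5SA OE CMs, beside 12.8% and 9.18% of all genes. Esrra, a nuclear receptor that drives oxidative genes, had 703 and 622 CPM in GFP and 383 and 282 in YAP5SA OE CMs, 0.499 of the GFP level (adjusted p of 0.0056). Its coactivator Ppargc1b had -1.25 (adjusted p of 0.0012). Myc, an activator of growth genes, had 20.8 and 15.3 CPM in GFP and 30.1 and 81.7 in YAP5SA OE CMs, a log2 fold change of 1.48 with an adjusted p of 0.017 and a wide gap between the YAP5SA libraries. Pprc1, a relative of Ppargc1b induced in growing cells, had 0.97 (adjusted p of 0.0046).

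Genes of the cytosolic ribosome, which makes the members' proteins, were counted in the same fit. Over all genes, 12.8% were called higher and 9.18% lower in YAP5SA against GFP. Of 83 kept cytosolic ribosomal protein genes, 71 were called higher and 1 lower in YAP5SA against GFP, with a median of 0.88, beside 4 and 8 of 77 and a median of -0.14 for the members. In YAP6SA against GFP the medians were 0.26 and 0.07, with 0 calls in both families. Nuclear respiratory chain genes have products that work beside the proteins that the mitochondrial ribosome makes. Of 84 kept, 9 were called higher and 7 lower in YAP5SA, with a median of 0.06. These shares, 10.7% and 8.33%, were close to those of all genes. In YAP6SA the median of this family was 0.31 with 0 calls.

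The mRNAs that the mitochondrial ribosome translates had higher values in both YAP groups. All 10 kept mRNAs of the mitochondrial genome were called higher in YAP5SA, with a median of 0.95, where 12.8% of all genes were called higher. In YAP6SA the median was 0.79, all 10 values were positive and 0 passed the edgeR test, with all 10 under an unadjusted p of 0.05. They summed to 12000 to 12410 CPM in GFP, 18170 to 23630 in YAP6SA and 19770 to 27060 in YAP5SA. These RNAs are made outside the nucleus, and the cytoplasm carried along with the nuclei was not measured. Its part in the members' values was not tested. The differences between gene families were not tested as such, and all comparisons with GFP share the GFP libraries.

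**Figure D5:**
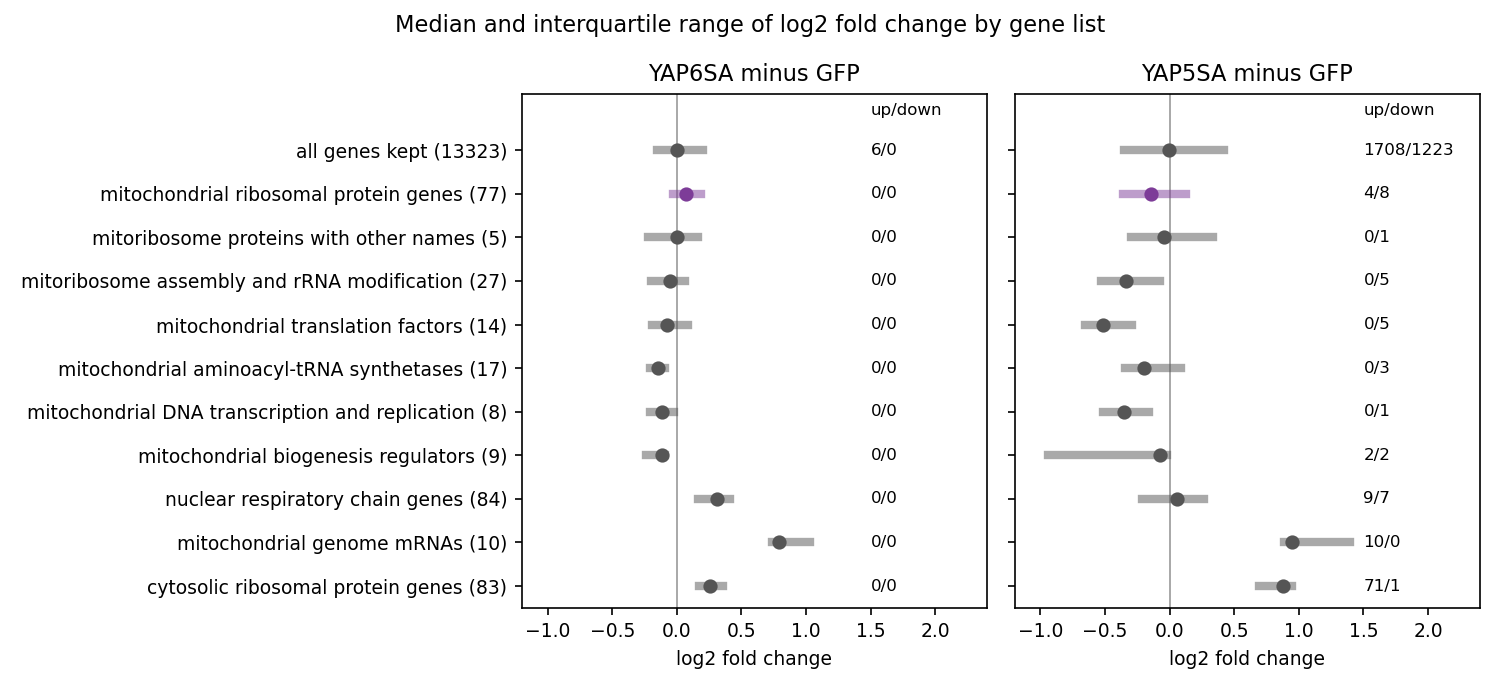
Median (point) and interquartile range (bar) of the log2 fold change (x axis) over the kept genes of each list (number in brackets), in YAP6SA and YAP5SA against GFP, with the numbers called higher and lower at the right. In YAP5SA the members' median is -0.14, translation factors lie at -0.51 and cytosolic ribosomal protein genes lie at 0.88.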

How the data were processed

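The authors aligned reads to GRCm38 (mm10) with STAR, per the labels, and deposited raw counts per gene for 6 libraries in 1 table, with reads that fall in several genes set apart. No other column of sample values was in the table. Gene symbols, positions and exons were taken from GENCODE M21. Members and lists were chosen with earlier results of these data known. The counts were filtered as in the study (median log2 CPM above 1 in at least 1 group), scaled by TMM and fitted over all 13323 genes kept with edgeR 4.0.16 in R 4.3.3 (quasi-likelihood F test, batch and group terms, all 6 libraries, Benjamini-Hochberg adjustment, threshold of 0.05). CPM values are TMM-scaled, fold changes are log2, and SEs are the absolute fold change divided by the square root of F. All tests were two-sided. Alternatives were DESeq2 1.42.0, limma 3.58.1 (voom), a likelihood ratio test, other scalings, filters and thresholds, no batch term, 4-library fits and each library left out. The code was tested on simulated data.

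The labels give each replicate number as a batch, which pairs the replicates across groups: deviations from group means correlated at 0.368 between GFP and YAP6SA, 0.0985 between GFP and YAP5SA and 0.175 between the YAP groups. Replicates differed by far more than counting noise (chi-square per degree of freedom of 31.0 to 49.4). A count of 0 allows up to 3 counts, which was 0.153 to 0.206 CPM by library and covers counting error only. Named members were those called (at most 8 in each direction and comparison), the 3 highest and 3 lowest fold changes and levels per kilobase, and Mrps33, Mrps18a, Mrps18b, Mrps18c, Mrps30, Mrps36, Mrpl57, Mrpl58 and Mrpl12. Start distances used the annotated gene ends.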

Additional observations from a re-analysis of the deposited data

Results flagged for a closer look

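For 6 members the difference between YAP5SA and GFP was not the same as that between YAP6SA and GFP, tested as YAP5SA against YAP6SA in the edgeR fit. All 6 were lower in YAP5SA in both batches. The log2 fold changes were -1.10 for Mrps33, -0.97 for Mrpl55, -0.74 for Mrpl1, -0.69 for Mrpl4, -0.68 for Mrpl42 and -0.63 for Mrpl3. The SEs lay between 0.15 and 0.19, and each of the 6 lost its call without YAP6SA replicate 2, when 0 members were called. With 2 libraries in a group, no single library could be singled out within its group.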

How the results depend on the processing

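In YAP6SA against GFP, 0 members were called under every alternative. In YAP5SA against GFP the count of 12 became 6 with no replicate block (the pairing by batch left out) and 2 at a threshold of 0.01. It ranged from 2 to 22 when a library was left out. In YAP5SA against YAP6SA the count of 6 became 10 without a filter on low counts, 10 by the likelihood ratio test, 2 with no replicate block, 2 at a threshold of 0.01 and 15 at 0.1, and ranged from 0 to 19 when a library was left out. The joint test of both groups went from 7 to 11 without the filter, 2 at 0.01 and 14 at 0.1. The share of all genes called under each alternative is not given here, so these changes in number are not read as particular to the members. The cause was not tested.

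Median log2 fold changes kept their direction in each comparison, from 0.05 to 0.10, from -0.23 to -0.06 and from -0.27 to -0.17. The ends of the range for YAP5SA against GFP, -0.23 over members without exon overlap and -0.06 over members with a short transcript, came from alternatives chosen after seeing the data. With the 250 bases before the start alone, the share of member promoters with the ETS letters was 24% and that with the YY1 letters 1.33%, the 50 bases after the start being left out.

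The sign changes were all in differences that did not pass the test. Against GFP in YAP5SA, Mrps18c went from 0.0021 to -0.0028 with DESeq2 size factors, -0.0029 by DESeq2, -0.0018 with no replicate block and -0.0029 in the 4-library fit, and ranged from -0.15 to 0.17 with a library left out. The ranges with a library left out were -0.23 to 0.10 for Mrps18b, -0.46 to 0.40 for Mrps30 and -0.45 to 0.33 for Mrpl57. Against GFP in YAP6SA they were -0.72 to 0.13 for Mrps30 and -0.13 to 0.016 for Mrps33. A fit without a library leaves 1 sample in that group, which is assumed to vary like the others.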
